A study of Rattus norvegicus with 6 samples.

Results

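Distal CpG sites with little methylation on the sham-operated side were examined in the rat dorsal root ganglion (DRG), which holds the cell bodies of the sensory neurons. The sites are the rows of the deposited annotated table that carry no promoter, exon, CpG island or island shore flag and whose mean methylation over the 3 Sham libraries is under 20%. This left 1577 of 26479 distal sites and of 32674 annotated nuclear sites in all. Of the 1577, 375 carried the intron flag (of 7378 intronic distal sites) and 1202 did not and are called intergenic here (of 19101). The Sham values chose the sites, so their Sham level and any comparison of SNL with Sham at them are descriptions.

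The ganglia came from male Sprague-Dawley rats, an outbred stock, of 8 to 9 weeks and about 220 g. Neuropathic pain was modelled by spinal nerve ligation, abbreviated SNL: a suture was tied around the L5 and L6 nerves on the left. Per the labels, the control (Sham) was surgery on the opposite side in which no nerve was tied. There were 3 SNL and 3 Sham libraries, all 3 weeks after surgery, read by reduced representation bisulfite sequencing (RRBS), which samples CpG-rich MspI fragments and gives, for each cytosine, the percent of reads in which it was methylated. The labels do not say which libraries came from which animal, so the spread between libraries may be technical in part. They give no sequencing batch.

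Most CpGs of a mammalian genome are methylated. Unmethylated stretches mark CpG island promoters, and short stretches of low methylation away from promoters are known to coincide with enhancers and other places where transcription factors bind. Such distal stretches differ between cell types. In a whole ganglion a level is an average over neurons, satellite glia, Schwann cells and other cells, so a partial level in all cells and a full difference between cell types cannot be told apart. Bisulfite reads also show a T where the animal's own DNA carries T in place of the reference C, and such a position is listed as unmethylated.

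Libraries from different groups resembled each other at the sites that varied most. Over the 75 annotated sites whose 6 libraries spanned more than 40 points, SNL 2 correlated with Sham 2 at r = 0.967 and SNL 3 with Sham 1 at r = 0.954 (Pearson, across sites that share libraries, as a description). SNL 1 had its highest correlation, 0.173, with SNL 3, and Sham 3 correlated with Sham 2 at 0.701 and with SNL 2 at 0.693. The labels describe Sham as surgery on the opposite side and tie no library to an animal, and whether these pairs of libraries share an animal was not tested. The comparisons below treat the 6 libraries as separate. The group differences in mean level for the Sham choice and the 6-library choice are also given without the sites that spanned more than 30 points.

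Depth was similar over the libraries, with a summed nuclear coverage of 27131679 to 34226084 reads. The 1577 sites had a median coverage of 218 reads and at least 100 in each library, against a median of 208 at the other 24902 distal sites. In 68 of them (4.31%) every library had more than 1000 reads, against 1.68% of the other distal sites, and the deepest had a median of 6292.5 reads. PCR reads without molecular identifiers are not independent molecules.

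The threshold of 20% fell in a flat part of the distribution and not at a gap. In Sham, 565 distal sites lay under 5%, and the next 5 classes of 5 points held 319, 352, 341, 348 and 368 sites. The site closest below the threshold lies 44.3 kb upstream of Setd7 (19.995% in Sham, 33.0% after SNL), followed by sites assigned to Tmem150c (19.991% and 18.8%) and Naxd (19.985% and 19.6%). Just above it were sites assigned to NM_001047962 (20.003% in Sham and 16.0% after SNL) and Litaf (20.03% and 10.4%).

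**Figure D1:**
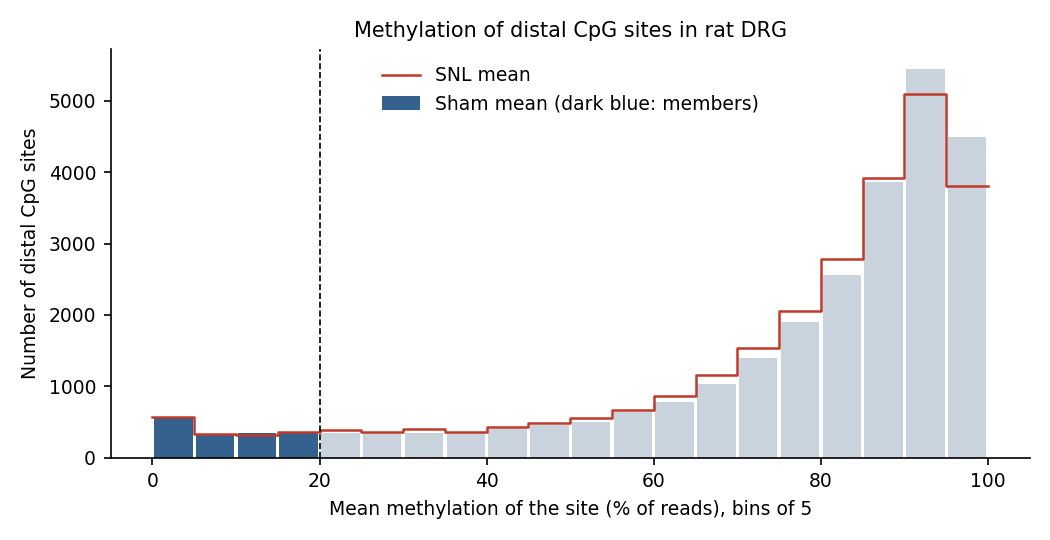
Number of distal CpG sites (y axis) in classes of 5 points of mean methylation (x axis), by the Sham mean (bars, the 1577 sites under 20% in dark blue) and by the SNL mean (red line); the dashed line is the 20% threshold. The low end holds a peak of 565 sites under 5% by the Sham mean and a flat stretch above it, with most distal sites at 80% or more.

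The SNL libraries, whose values the choice did not use, showed low levels at nearly all of these sites. Of the 1577, 1473 (93.4%) had an SNL mean under 20%, 97 lay at 20 to 30% and 7 at 30% or more. By comparison, 100 of the other 24902 distal sites (0.402%) had an SNL mean under 20%. The median level was 8.25% after SNL, and the median SD between the SNL libraries was 1.57 points. Intronic sites stood at a mean of 10.8%, 9.70% and 9.42% in SNL 1 to 3 and intergenic sites at 10.01%, 8.95% and 8.70%, so the intronic mean was the higher one in each SNL library. CpG island promoters, as a reference for unmethylated DNA, averaged 3.68%, 3.64% and 3.65% over 787 sites. Their median was 1.53% after SNL, and 15 of the 787 had an SNL mean of 30% or more.

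Within the low sites the level ran from near 0% up to the threshold in similar steps. In Sham, 236 sites lay under 2%, 329 at 2 to 5%, 319 at 5 to 10%, 352 at 10 to 15% and 341 at 15 to 20%. Their SNL means in the same order were 1.44%, 3.64%, 7.58%, 13.2% and 18.3%. Thus 565 sites lay under 5%, a range that holds the mean of CpG island promoters, and 1012 were partly methylated at 5 to 20%. Of the 565, 329 lay at 2% or more, above the promoter median of 1.40% in Sham. Sites under 5% made up 128 of the 375 intronic and 437 of the 1202 intergenic sites.

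These sites lay nearer to annotated transcript starts than the remaining distal sites did, although none was in a flagged promoter. The median distance was 33.2 kb, with quartiles of 11.8 and 96.2 kb, against 64.2 kb for the other distal sites. Between 1 and 2 kb from a start, just outside the promoter flag, 21.9% of distal sites (48 of 219) were low. The share was 10.1% at 2 to 5 kb, 8.00% at 5 to 20 kb, 6.30% at 20 to 100 kb, 3.97% at 100 to 500 kb and 3.02% (60 of 1984) beyond 500 kb. In introns it was 28.4% at 1 to 2 kb, 2.42% at 100 to 500 kb and 4.85% (5 of 103) beyond 500 kb. Outside genes it was 14.6%, 4.37% and 2.92% at the same distances. Beyond 500 kb single regions weighed on these shares. The 5 intronic sites lay in 1 region, assigned to Lrrc4c and described below, and 14 of the 60 lay in the Tubgcp5 region. The shares are a description, since neighbouring sites are not independent.

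Introns and intergenic DNA differed in where the low sites sat. Intronic ones had a median distance of 24.2 kb, and 20.8% (78 of 375) lay within 5 kb of a start. Intergenic ones had a median distance of 39.2 kb, with 7.74% (93 of 1202) within 5 kb and 28.3% (340) beyond 100 kb. Of the intergenic sites 65.6% were upstream of the nearest start. The intron flag names no gene, and 52 of the 375 intronic sites also lay upstream of their nearest start. The 128 intronic sites under 5% were the closest to starts, with a median of 9.60 kb and 33.6% within 5 kb, whereas the 247 intronic sites at 5 to 20% had a median of 28.7 kb and 14.2% within 5 kb.

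The nearest and farthest sites illustrate this range. The nearest lay 1.01 kb upstream of Gria3, an AMPA glutamate receptor subunit gene, on chromosome X (position 3719492, rn4), and read 1.62%, 0.992% and 1.90% in SNL 1 to 3 and 1.76%, 1.73% and 1.54% in Sham 1 to 3. Another lay 1.03 kb upstream of Mir146b, a microRNA gene of immune regulation, at 3.92% ± 0.63 in the SNL and 3.15% ± 1.00 in the Sham libraries (SD, n = 3). Both were under 5% in every library. The farthest lay 2482 kb from the start of Tubgcp5, within the densest region described below.

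Chromosomes differed in the share of distal sites that were low, from 3.27% on chromosome 15 to 9.06% on chromosome 12, against 5.96% in all. On chromosome X, of which males carry a single copy, it was 3.74% (13 of 348 sites).

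The low level extended over a stretch of DNA rather than a single CpG. Other CpGs with 20 or more reads in every library, at 2 to 25 bp from a low site, averaged 15.8% ± 0.77 in the SNL libraries (SD, n = 3, around 811 sites), and those at 51 to 100 bp averaged 16.1% ± 0.59. Farther away the level climbed to 24.9% ± 0.58 at 251 to 500 bp, 38.2% ± 0.79 at 501 to 1000 bp and 53.5% ± 0.59 at 2001 to 5000 bp. Around the other distal sites it was 80.9% ± 0.79 at 2 to 25 bp and 70.8% ± 0.85 at 2001 to 5000 bp. Between 501 and 1000 bp the surroundings averaged 31.6% ± 1.4 around 75 intronic sites and 41.4% ± 0.59 around 157 intergenic sites. At 1001 to 2000 bp the order was the reverse (54.3% ± 1.5 around 67 and 47.3% ± 0.55 around 198). These SDs are between libraries and do not measure the spread between sites, so both orders are descriptions. CpGs within 50 bp can be read on the same 50-base read, and they can be low sites themselves.

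**Figure D2:**
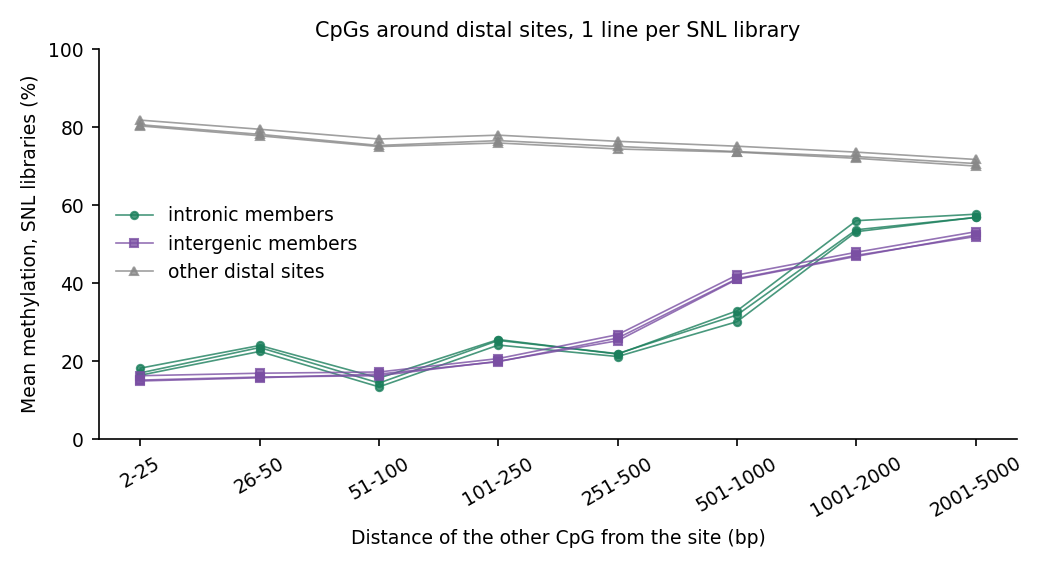
Mean methylation in each SNL library (y axis, %) of other CpGs by their distance in bp (x axis) from intronic low sites, intergenic low sites and the other distal sites, with 1 line per library. Around low sites the level climbs from 15.8% at 2 to 25 bp to 53.5% at 2001 to 5000 bp over intronic and intergenic sites together, while around the other distal sites it stays above 70%.

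A minority of low sites stood among methylated neighbours. A further CpG 2 to 50 bp away was measured for 1146 of the 1577 sites. Its SNL mean, or that of several such CpGs, was under 20% at 848 sites (74.0%), 20 to 60% at 224 and 60% or more at 74 (6.46%). Of these 74, 56 belonged to the 565 sites under 5% in Sham and 18 to the 1012 sites at 5 to 20%. In 19 of them every library was under 2% while the neighbours averaged 80% or more after SNL. The 3 deepest of those 19, named after their values were seen, are assigned to Slc9a8 (chromosome 3, position 158554254; 0.074% to 0.410% over the 6 libraries, neighbours at 95.2%), Fam184b (chromosome 14, position 70142377; 0% to 0.770%, neighbours at 88.0%) and Rab12 (chromosome 9, position 105841525, intronic; 0% to 0.503%, neighbours at 86.2%). Whether the rats carry a CpG at these positions was not tested.

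The opposite strand gave a second reading of some sites. At 60 of the 1577 the other cytosine of the CpG, 1 bp away, was also measured, and its SNL mean was 11.1% on average, with a range of 1.45% to 31.0%. It was under 20% at 54 of the 60. At the other distal sites with such a partner (682) the average was 77.1%, and 3 of the partners were under 20%.

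Low sites were only slightly more crowded with measured CpGs than the rest. A mean of 1.69 other CpGs was measured within 100 bp, against 1.21 for the other distal sites, and 25.6% had none, against 34.7%. Intronic sites under 5% had a mean of 2.46. RRBS measures only CpGs near MspI cuts, so these counts are not the CpG density of the DNA.

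When sites within 1000 bp of each other were joined, the 1577 sites formed 1005 regions, 250 intronic and 755 intergenic. Of these, 661 held 1 site, 214 held 2 and 130 held 3 or more. The region with the most, 14 sites in 115 bp, is intergenic on chromosome 1 (104689615 to 104689729), 2482 kb from the start of Tubgcp5, which encodes a component of the gamma-tubulin ring. Its mean was 12.7%, 9.80% and 17.2% in SNL 1 to 3 and 19.2%, 9.04% and 8.36% in Sham 1 to 3. SNL 3 and Sham 1 were the 2 highest libraries, and the groups overlapped.

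Further intergenic regions had similar levels in all 6 libraries. The region 29.9 kb upstream of Coa7, a gene for assembly of mitochondrial respiratory complexes, held 7 sites in 39 bp (chromosome 5, 129392868 to 129392906) at 1.43% ± 0.17 in the SNL and 1.21% ± 0.31 in the Sham libraries (SD, n = 3). The region 48.1 kb upstream of Chd6, a chromatin remodeller gene, held 6 sites (chromosome 3, 151972767 to 151972828) at 6.70% ± 0.63 and 6.22% ± 0.35. Its 4 other CpGs within 2 kb averaged 58.6%, so this low stretch lay in partly methylated DNA.

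Among intronic regions the most sites, 9 in 37 bp, lay 1.10 kb from the start of Usp49, a histone deubiquitinase gene (chromosome 9, 8831146 to 8831182), at 1.19% ± 0.42 in the SNL and 1.29% ± 0.12 in the Sham libraries (SD, n = 3). An intronic region assigned to Lrrc4c, the gene of a synaptic adhesion protein that binds netrin-G, held 5 sites (chromosome 3, 82247650 to 82248203) at 2.10% ± 0.54 and 1.80% ± 0.49, 1326 kb from the listed start.

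The intronic region assigned to Alox5, which encodes the 5-lipoxygenase of leukotriene synthesis, was the deepest of the named regions, with 2084 to 4975 reads over its 6 sites (chromosome 4, 152578766 to 152578872). Its mean was 28.4%, 18.0% and 13.96% in SNL 1 to 3 and 12.6%, 17.4% and 15.1% in Sham 1 to 3. SNL 1 stood above the other 5 libraries and the groups overlapped.

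A few low sites differed widely between libraries. In 12 of the 1577 (5 intronic, 7 intergenic; 0.761%) the 6 libraries spanned more than 30 points, against 0.454% of the other distal sites. At the intergenic site assigned to NM_001047935 (chromosome 18, position 25150907) SNL 1 read 99.1%, SNL 2 1.36% and SNL 3 55.9%, while Sham 1 read 52.8%, Sham 2 0% and Sham 3 0.485%. At the intergenic site 129.1 kb upstream of Slc25a4, the gene of a mitochondrial ADP/ATP carrier, SNL 3 and Sham 1 read 47.7% and 49.8% and the other 4 libraries 1.51% to 2.07%. At the intergenic site assigned to Cd180, which encodes a relative of the Toll-like receptors found on B cells, SNL 2 and Sham 2 read 38.9% and 35.3% and the others 2.54% to 4.76%. Over these 12 sites SNL 3 and Sham 1 never differed by more than 10.7 points and SNL 2 and Sham 2 never by more than 8.49, whereas SNL 1 and Sham 3 differed by up to 98.7.

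The site in an intron assigned to Robo1, the receptor of the axon guidance protein Slit, and the one upstream of Map4k3, a kinase gene, were high in SNL 1 alone (54.3% and 50.5%, with 0% to 2.82% in the other 5 libraries). At the site assigned to Wnt16, a Wnt ligand gene, SNL 1 read 91.2% and Sham 3 33.1%, with the other 4 at 0% to 1.26%. The site of Artn, the gene of the neurotrophic factor artemin, was high in SNL 1 (65.1%), SNL 3 (27.4%) and Sham 1 (38.1%). The remaining 5 of the 12, assigned to Sf3b5, NM_001105868, Ankrd29, Stard4 and Ppic, were highest in SNL 1, in SNL 2 with Sham 2, or in SNL 3 with Sham 1. In each of the 12 the difference between the group means was smaller than the SD of the SNL libraries.

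**Figure D3:**
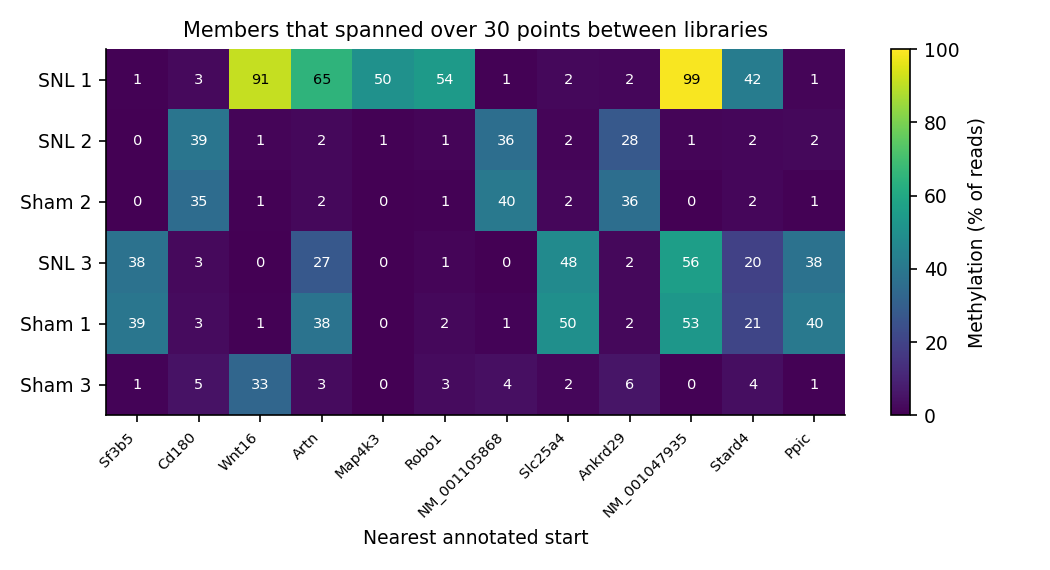
Methylation (colour and printed value, % of reads, rounded) of the 12 low sites whose libraries spanned more than 30 points, with libraries in rows and the nearest annotated start in columns. SNL 2 and Sham 2 share their high sites, as do SNL 3 and Sham 1, and SNL 1 is high at sites where most others are near 0.

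After SNL the mean of the low sites was 10.2%, 9.13% and 8.87% in SNL 1 to 3, and it was 8.72%, 9.37% and 8.72% in Sham 1 to 3. SNL 1 was the highest library and the groups overlapped. The mean difference was 0.46 points ± 0.46 (SE; 9.40% ± 0.71 against 8.94% ± 0.38, SD, n = 3), and 0.40 points without the 12 sites of wide span. Without SNL 1 it was 0.063 points. At intronic sites it was 0.69 points (0.58 without those of wide span) and at intergenic sites 0.39 points (0.34 without them). The other distal sites stood at 79.2% ± 0.90 and 80.4% ± 0.50. Sites picked for a low Sham value can read higher in other libraries through the choice alone, and this cannot be told apart from a rise within these differences.

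Choices that do not favour the Sham libraries gave smaller differences. When distal sites were chosen by the mean of all 6 libraries, 1564 sites were under 20%, and they averaged 9.01% ± 0.56 in the SNL and 8.95% ± 0.39 in the Sham libraries (SD, n = 3). The difference was 0.064 points ± 0.39 (SE; exact two-sided permutation p = 0.9, adjusted p = 0.9 over 5 such comparisons), and 0.066 points without sites of wide span (exact permutation p = 0.8). Intronic sites of that choice differed by 0.15 points (exact permutation p = 0.6) and intergenic ones by 0.037 (exact permutation p = 0.9). Leaving out 1 library turned the sign when it was SNL 1 (-0.19 points), Sham 1 (-0.029) or Sham 3 (-0.042), and gave 0.16 points for SNL 2, 0.34 for SNL 3 and 0.30 for Sham 2. With 3 libraries against 3 the smallest p is 0.1. The comparisons within this choice are of parts of the same 1564 sites, chosen by values they also read. Their p-values are therefore not separate, and no absence of a difference is read from them. Here and below the permutation takes the 6 libraries as exchangeable. At the sites that varied most, however, SNL 2 resembled Sham 2 and SNL 3 resembled Sham 1. When 1573 sites were chosen by the SNL mean instead, SNL minus Sham was -0.29 points, which is a description.

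Each Sham library was also read at sites that the other 2 Sham libraries had chosen. Sham 1 stood at 8.87% over 1542 sites, Sham 2 at 10.1% over 1627 and Sham 3 at 8.88% over 1558. The SNL mean at the same sites was 9.25%, 9.78% and 9.26%, so SNL minus the left-out library was 0.39, -0.29 and 0.38 points. A left-out Sham library was under 20% at 94.0%, 88.1% and 93.8% of the sites chosen by the others. The share of the low sites with an SNL mean under 20% was 93.4%, but that is the mean of 3 libraries and not a single library.

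**Figure D4:**
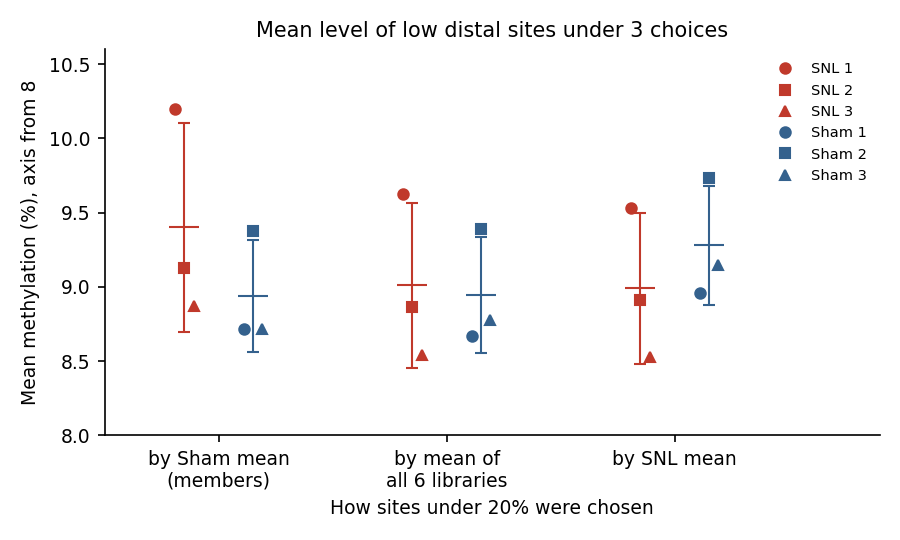
Mean methylation per library (y axis in %, starting at 8) of distal sites under 20% when chosen by the Sham mean, by the mean of all 6 libraries or by the SNL mean; bars are mean ± SD over 3 libraries. The SNL minus Sham difference is 0.46, 0.064 and -0.29 points in that order, and the groups overlap in each.

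CpGs outside the annotated table gave a comparison at sites the choice did not read. There were 1609 such CpGs with 20 or more reads in all 6 libraries at 51 to 1000 bp from a low site. They averaged 28.0%, 27.4% and 27.0% in SNL 1 to 3 and 27.5%, 28.2% and 27.7% in Sham 1 to 3. The difference of -0.32 points ± 0.35 (SE) was within the spread between libraries (exact two-sided permutation p = 0.4, adjusted p = 0.9 over the same 5 comparisons). These CpGs come from the same 6 libraries and lie next to the chosen sites, so the comparison is not fully separate from the choice.

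At most single sites the difference between the group means was small. At 1112 of the 1577 (70.5%) the SNL mean lay within 2 points of the Sham mean, and at 13 it differed by 10 points or more. The share within 2 points was 58.5% over all annotated sites and 53.6% at the other distal sites. Levels near 0% leave little room for a fall, so these shares are a description. The median difference was 0.25 points, against -0.55 over all annotated sites. The SNL libraries were all above the Sham libraries at 122 sites, or 7.74% against 4.64% of all annotated sites, and all below at 102 sites, or 6.47% against 13.2%. In the fit over all annotated sites, a moderated logistic F test with Benjamini-Hochberg adjustment at 0.05, 9 of the 1577 were called (5 higher and 4 lower after SNL), 5 of them intronic. Over all annotated sites 464 were called, which is 1.42% (0.181% higher, 1.24% lower). Since the Sham values chose the sites and also enter this contrast, nothing is read from the share of the 1577. On simulated data, described below, the test made 40 false calls, a larger share of its calls than the 0.05 of the threshold.

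The count of 9 changed when single libraries were left out, and so did the count over all annotated sites. Leaving out SNL 3 raised the count at the low sites to 17, and leaving out SNL 1 kept it at 9. Leaving out SNL 2 lowered it to 5, Sham 1 or Sham 2 to 4 and Sham 3 to 0 (129 at an unadjusted p under 0.05, against 139 with all 6). Over all annotated sites the 464 calls became 522, 236 and 305 without SNL 1, 2 and 3. They became 292, 251 and 129 without Sham 1, 2 and 3. An F test without moderation and limma on logit values called 0 of the 1577, with 56 and 127 at an unadjusted p under 0.05. With an offset per library 15 were called, 13 higher and 2 lower, and over all annotated sites 394, 152 higher and 242 lower. Without the 12 sites of wide span the count was still 9.

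The 5 sites called higher lay in 3 introns and 2 intergenic places. The site with the largest difference was in an intron 16.3 kb from the start of Ppm1l, a protein phosphatase gene (chromosome 2, position 159402176). It read 26.8%, 29.6% and 22.8% in SNL 1 to 3 and 11.3%, 13.2% and 13.4% in Sham 1 to 3, with 152 to 204 reads, a difference of 13.8 points ± 2.07 (SE). The intron of Slc29a4, which encodes a plasma membrane monoamine transporter, held a site 44.9 kb from the start that read 38.5%, 32.4% and 24.9% against 15.8%, 23.0% and 19.1% (chromosome 12, position 12206760, 1831 to 2471 reads). In Ptpro, a receptor tyrosine phosphatase gene, an intronic site at 204.8 kb read 22.3%, 24.6% and 28.7% against 13.8%, 15.5% and 16.2% (chromosome 4, position 174581182).

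Among the intergenic sites, the one 29.2 kb upstream of Srpk2, a kinase gene of splicing factors, read 19.9%, 25.1% and 24.3% in SNL 1 to 3 and 15.2%, 14.98% and 12.4% in Sham 1 to 3 (chromosome 4, position 6889366). The one 31.1 kb upstream of Afg1l, a gene of a mitochondrial ATPase, read 16.3%, 14.7% and 13.8% against 11.5%, 12.1% and 10.1% (chromosome 20, position 46333581). It had 1557 to 2134 reads per library and a difference of only 3.71 points. In all 5 the groups did not overlap.

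The 4 sites called lower were led by an intronic site of Insr, the insulin receptor gene, 39.9 kb from its start (chromosome 12, position 2974824). It read 7.10%, 6% and 8.89% in SNL 1 to 3 and 15.8%, 18.3% and 21.8% in Sham 1 to 3, a difference of -11.3 points ± 1.94 (SE, 133 to 263 reads). The site 97.7 kb upstream of Tent5a, a poly(A) polymerase gene, read 11.4%, 10.8% and 6.62% against 15.6%, 21.8% and 20.8% (chromosome 8, position 90603811). The site 3.495 kb upstream of F2rl2, the gene of a protease-activated receptor, read 9.85%, 9.33% and 10.4% against 13.3%, 14.7% and 16.4% (chromosome 2, position 26070357). In Ptpre, a tyrosine phosphatase gene, an intronic site at 3.48 kb read 4.04%, 6.41% and 4.62% against 9.25%, 9.47% and 10.8% (chromosome 1, position 195266963). The Sham values of these 4 were all above their SNL values.

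**Figure D5:**
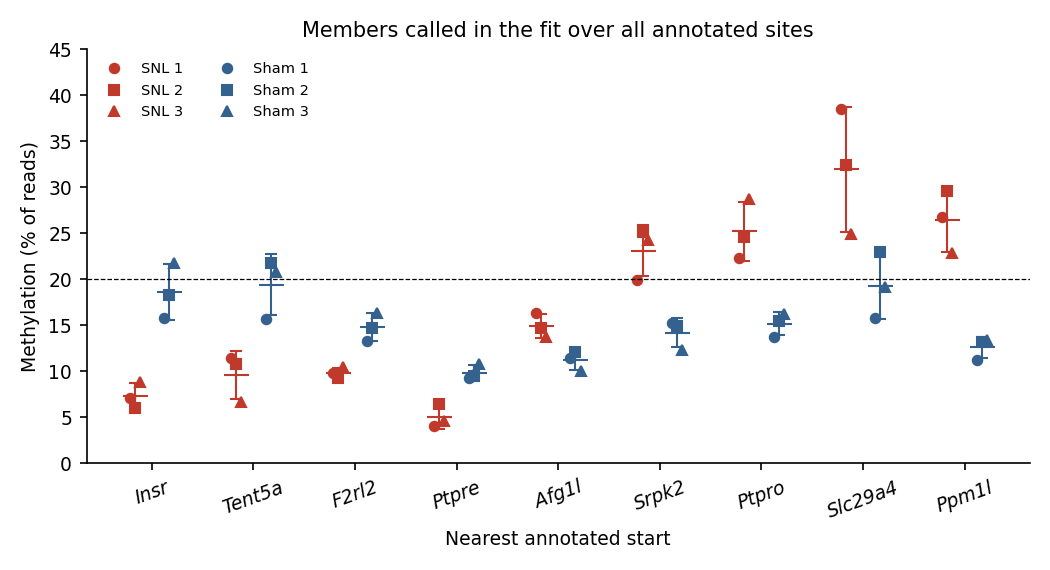
Methylation (y axis, % of reads) of the 9 low sites called in the fit over all annotated sites, by nearest annotated start, with 1 point per library and bars for the mean ± SD of 3 libraries; the dashed line is 20%. The groups do not overlap at any of the 9, and the differences run from -11.3 points (Insr) to 13.8 points (Ppm1l).

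Other large differences without overlap of the groups were not called in this fit. Sites higher after SNL were an intronic one 46.1 kb from the start of Vgll4, a cofactor of TEAD factors (25.3% ± 2.3 against 15.5% ± 3.1, SD, n = 3), one 65.6 kb upstream of Esrrb, an orphan nuclear receptor gene (19.5% ± 3.2 against 10.01% ± 3.5), and one 72.9 kb upstream of Dusp6, a phosphatase gene that limits ERK signalling (21.5% ± 2.2 against 12.5% ± 2.3). Sites lower after SNL were intronic ones assigned to Smim14 (10.4% ± 2.4 against 19.6% ± 3.3) and Plekhg5, a RhoA exchange factor gene (11.6% ± 2.3 against 19.0% ± 3.4). Further lower sites were one 11.1 kb upstream of Slc30a1, a zinc exporter gene (5.95% ± 0.59 against 14% ± 2.0), and one 159.2 kb from the start of Zfp365 (5.74% ± 1.60 against 12.8% ± 4.1).

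By the q-values of the authors' deposited table, 42 of the 1577 passed 0.05 (23 higher and 19 lower after SNL), or 2.66%, against 1484 of all annotated sites (231 higher and 1253 lower), or 4.54%. The Sham values that chose the sites enter this contrast too, so nothing is read from the share or direction at the 1577. The sites just named as not called all passed 0.05 by the authors' q-values, from 0.00283 (Slc30a1) to 0.0443 (Plekhg5). Of the 9 called sites, all but the Slc29a4 site (0.0671) passed it too. Which sites count as called thus depends on the test.

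The low sites were assigned to 897 genes by the nearest start, and 10 gene lists were described by the share of their distal sites that was low, against 5.96% of all distal sites. A list gene is the nearest start, which need not be the gene a site acts on. Of 40 neural crest and homeobox factor genes with a distal site, 17 had a low one, with 33 of 302 sites (10.9%) in 20 regions. All 7 distal sites nearest to Hoxc12, a HOX cluster gene that sets position along the body axis, were low, at 8.23% ± 1.46 in the SNL and 8.18% ± 0.55 in the Sham libraries (SD, n = 3). All 3 nearest to Hoxb3 were low too (11.2% ± 1.7 and 9.99% ± 1.99). Sox5, a gene of neural crest and glial development, had 4 of 34 (6.71% ± 1.25 and 6.50% ± 0.68). The median difference of the list was 0.16 points and none of its low sites was called. In all, 9 of the 1577 low sites and 1.42% of all annotated sites were called. A list with few low sites can thus hold 0 calls whatever its genes. Nothing is read from the counts of calls in this list or in those below.

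Glial and immune lists held further clusters. Of 17 Schwann cell and satellite glia genes 5 had a low site, with 11 of 89 sites (12.4%) and 0 called. They were led by Gja1, the connexin 43 gene (4 of 11 sites, 3.53% ± 0.33 after SNL and 3.68% ± 1.02 in Sham; SD, n = 3), Sox2 (3 of 21, from 3.96 kb of its start on, 3.63% ± 1.10 and 4.89% ± 1.52) and Pmp22, a gene of compact myelin (2 of 8, at 343.8 kb, 15.8% ± 2.0 and 13.4% ± 2.2). Of 13 macrophage and immune genes 2 had one, with 7 of 41 sites (17.1%) and 0 called. All 4 sites nearest to the complement gene C1qa were low (11.4% ± 1.8 and 12.3% ± 1.5), as were 3 of 14 assigned to Irf8, a factor of myeloid cells (12.1% ± 2.5 and 11.3% ± 1.9). The median differences were -0.74 and 0.40 points. The low sites of these lists lay in 6 and 3 regions, so their counts rest on few places.

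Neuronal lists ran from below to above the overall share. Of 22 sensory neuron identity genes 3 had a low site, with 4 of 154 sites (2.60%): 2 sites 1.2 kb upstream of Elavl4, a neuronal RNA-binding protein gene (7.75% ± 1.04 after SNL, 10.1% ± 0.84 in Sham; SD, n = 3), and 1 each assigned to Nefm (13.6% ± 0.60 and 16.4% ± 3.9) and Ntrk3, the receptor gene of neurotrophin-3 (2.92% ± 0.24 and 2.96% ± 1.52). Of 29 ion channel genes 3 had one, Cacnb3, Cacna1a and Kcnk1, with 3 of 158 sites (1.90%). Neurotransmitter and peptide receptor genes had 8 of 105 (7.62%), among them Npy2r, a neuropeptide Y receptor gene (2.33% ± 0.52 and 2.30% ± 0.56), Grik4 and P2rx4. None of these sites was called, and the median differences were -2.36, 1.31 and 0.046 points.

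The remaining lists were close to the overall share or held few sites. Injury and regeneration genes had 9 of 110 sites (8.18%), among them 3 of Klf6, 2 of Gadd45a and 1 each of Fos, Myc, Socs3 and Artn, the last being one of the 12 sites of wide span. The median difference was 0.28 points and 0 were called. Growth factor signalling genes had 11 of 211 (5.21%). Among the 11, 4 were intronic and assigned to Wnt5a (7.80% ± 1.295 after SNL and 6.77% ± 0.54 in Sham, SD, n = 3). Others were 2 each for Fgf8 and Nrg1 and the called Insr site, and the median difference of the list was 0.64 points. Endothelial and mural genes had 2 of 36 (5.56%, median difference -1.66), assigned to Emcn and Flt1. Fibroblast and perineurial genes had 3 of 64 (4.69%, median difference -0.73), 2 of them near Col1a1. Neither of these last lists had a called site.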

How the data were processed

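Per the submitters' processing notes, the alignment used Bismark 0.18.1 with Bowtie2 on rn4, followed by methylKit 1.3.3, although the protocol in the labels gives a human genome. The authors deposited, per the file headers, each CpG's coverage, a count of reads, with its percent of C, and an annotated table with percent, p-value, q-value, the difference in percentage points, flags and distances. How the authors' test was set is not given in the sources used here. Methylated counts were coverage times percent, rounded. RefSeq identifiers were matched to symbols by accession (93.9% of distal sites), with a GRCr8 gene table used for names only, so each gene named is that of the closest listed start.

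Every annotated site was tested by logistic regression on group. The Pearson overdispersion over 4 residual degrees of freedom was moderated with limma's squeezeVar, without sites of zero spread in the prior, and kept at 1 or above. P-values of the two-sided F test were Benjamini-Hochberg adjusted over 32674 sites, with a threshold of 0.05. On simulated data with 100 sites each changed by 10 and 20 points it recovered 36% and 94%, with 40 false calls. These false calls were a larger share of all calls than the 0.05 of the threshold. The changed sites were drawn from sites of intermediate methylation and not from sites under 20%, so recovery at the low sites was not measured. Means were compared by exact permutation over 20 arrangements. The fits ran in limma 3.58.1 under R 4.3.3 and the rest in pandas 2.3.3 under Python 3.11.15.

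The members, lists and tests were chosen with earlier results of these data known. Named were the 8 regions with the most sites (4 intronic, 4 intergenic), the 6 largest differences in each direction without overlap, the sites nearest the threshold and the extremes of distance, and up to 3 genes per list. The called sites, the 12 of wide span, the 3 isolated sites and further list genes were named after their values were seen. Some items that this rule names are not reported here. Sequences of these regions are not printed, since no rn4 genome was used here.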

Additional observations from a re-analysis of the deposited data

How the results depend on the processing

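The 1577 sites became 884 at a threshold of 10%, 669 at a coverage of 200 reads and 1005 when joined into regions. Leaving out a Sham library gave 1542 to 1627. Their mean difference between groups turned to -0.29 points when SNL chose the sites, and was 0.0633 to 0.729 points without 1 library. The 9 called sites became 0 with an unmoderated F test or limma on logit values, 3 at 200 reads, 15 with library offsets and 0 to 17 without 1 library. All annotated sites gave 0 calls by the F test and by limma (1968 and 3480 at an unadjusted p under 0.05), 240 at 200 reads, where fewer sites were tested, and 129 to 522 without 1 library. With the replicate number as a block, 132 of all annotated sites were called. Of the low sites 3 were called, all of wide span (Map4k3, NM_001047935 and Stard4), and none of the 9, whose adjusted p in the blocked logistic F test ran from 0.063 to 0.157. Libraries numbered 2 deviated together (correlation 0.148) and those numbered 1 and 3 did not (-0.0027 and -0.067), so the number is not taken as a pairing, and SNL 3 correlated best with Sham 1 (0.1796). For sites chosen by the mean of all 6 libraries the difference changed sign at thresholds of 10% and 30% (-0.00064 and -0.00043 points) and ranged from -0.191 to 0.343 points without 1 library, with every exact p at 0.5 or more. The difference at neighbouring CpGs stayed negative under all 10 alternatives run, from -0.584 to -0.0906 points. The cause of these changes was not tested. Sites near 15 to 20% in Sham have counting errors that can carry them across the threshold, and 3 libraries a group cannot give an exact p under 0.1.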
